A study of Homo sapiens with 6 samples.

Results

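Neuronal RNA-binding proteins of the ELAVL, RBFOX and NOVA families, together with the polypyrimidine tract-binding proteins PTBP1 and PTBP2, were followed in SH-SY5Y cells with and without DNAJC12. The 10 genes were chosen by name: ELAVL2, ELAVL3, ELAVL4, RBFOX1, RBFOX2, RBFOX3, NOVA1, NOVA2, PTBP1 and PTBP2. Of these, 8 had a row among the 20668 genes of the deposited gene table, and all 8 passed the filter on low counts. SH-SY5Y is a human neuroblastoma line of sympathetic lineage, and DNAJC12 is a co-chaperone of the HSP40 family. Ribosomal RNA-depleted libraries were sequenced from 3 wild-type (WT) and 3 DNAJC12 knockout (KO) samples, all untreated, the knockout having been made with CRISPR/Cas9. The guide position and the number of clones are not given in the sources used here, and the labels do not say whether replicates were separate cultures, so the p-values describe spread among these libraries only, and that spread may be technical.

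The neuronal ELAVL proteins bind U-rich and AU-rich stretches of mRNAs and are known to stabilise many of them and to promote their translation as neurons differentiate. RBFOX and NOVA proteins bind short motifs near alternative exons and raise or lower inclusion depending on which side of the exon they bind. PTBP1 represses neuronal exons in dividing cells, among them an exon of its paralog PTBP2, and its fall during neurogenesis allows PTBP2 and then later neuronal exons to appear.

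Sequences that the results turn on are shown first. ELAVL4 has several alternative first exons, and the upstream windows of a pair of them were read from the RefSeq promoter table (GRCh38.p14, plus strand), ending just before the annotated start. The first, at chr1:50103659-50103908, lies before transcript ELAVL4-206, the ELAVL4 transcript with the largest difference between genotypes described below. The second, at chr1:50108670-50108919, lies before ELAVL4-204 and ELAVL4-205, whose ratio of KO to WT was the lowest of the first exons in use. Capitals mark the hexamer CAGCTG, an E-box form bound by proneural basic helix-loop-helix factors, which reads the same on both strands.
ELAVL4-206 upstream: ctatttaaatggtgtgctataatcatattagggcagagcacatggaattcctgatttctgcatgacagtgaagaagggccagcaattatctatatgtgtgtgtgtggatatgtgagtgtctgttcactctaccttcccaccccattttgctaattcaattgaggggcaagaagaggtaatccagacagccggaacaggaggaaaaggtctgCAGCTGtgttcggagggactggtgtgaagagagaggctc
ELAVL4-205 upstream: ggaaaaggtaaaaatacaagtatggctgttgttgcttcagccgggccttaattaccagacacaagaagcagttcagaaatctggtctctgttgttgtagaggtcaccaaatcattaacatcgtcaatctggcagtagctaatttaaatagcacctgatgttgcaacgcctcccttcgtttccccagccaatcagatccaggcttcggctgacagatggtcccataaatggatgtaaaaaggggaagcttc
The hexamer occurred in the first window and not in the second, in 2 of the 7 ELAVL4 windows in the table, and in 14% of all 35116 promoter windows of 250 bases. A match is only a string of letters and was not tested as a binding site.

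The splice readout of the PTBP pair rests on a coding exon in each gene. The following lines give the exon in capitals within 12 bases of the neighbouring exons on each side, as they are joined in the GENCODE transcripts PTBP1-203 and PTBP2-202 (GRCh38, plus strand). The PTBP1 exon has 78 bases, a whole number of codons, and lies at chr19:805492-805569. It encodes part of the linker between RNA-binding domains in the middle of the protein, and forms with it are known to be stronger repressors at some exons. The PTBP2 exon has 34 bases, which is not a whole number of codons, and lies at chr1:96806419-96806452. Skipping of that exon, which PTBP1 promotes, shifts the frame and targets the mRNA for decay.
PTBP1 exon: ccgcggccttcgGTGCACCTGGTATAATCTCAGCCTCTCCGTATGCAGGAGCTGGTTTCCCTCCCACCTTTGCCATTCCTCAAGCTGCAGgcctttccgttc
PTBP2 exon: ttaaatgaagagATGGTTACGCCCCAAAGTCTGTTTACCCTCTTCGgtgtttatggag

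The libraries held between 19321842 and 21869659 counts, and 1 count corresponds to 0.0457 to 0.0518 CPM, the count scaled to library size. The targeted gene DNAJC12 stood at 23.0, 21.4 and 20.0 CPM in WT and at 5.91, 5.88 and 4.85 CPM in KO, a log2 fold change of -1.95 ± 0.13 (SE; edgeR adjusted p = 1.25e-06). The transcript was thus lower in every KO library but still present. Of 16403 genes tested with edgeR's quasi-likelihood test at an adjusted p below 0.05, 26.0% changed, 14.5% being higher and 11.5% lower in KO. Scaling to library size alone turned that split from 2383 higher and 1887 lower to 2055 higher and 2438 lower. Sympathetic neuroblast markers summed to 4130 to 4270 CPM in WT and 3720 to 3810 CPM in KO, with 10 of 11 in the table and TH without a row. Mesenchymal markers (6 of 7 in the table) summed to 2660 to 2880 CPM in WT and 4030 to 4220 CPM in KO. Schwann cell precursor markers (4 of 6) summed to at most 9.68 CPM and immune markers (4 of 5, mostly CD68) to at most 26.8 CPM, while endothelial markers (1 of 4) and brain glia markers (1 of 5) stayed below 1 CPM, and SOX10, CD3E, PECAM1, CDH5, GFAP and OLIG2 had no row. In bulk RNA, more cells of a type and more RNA per cell cannot be told apart, and the part of these marker shifts in the results that follow was not tested.

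Among the 8 genes tested, 4 rose in KO (ELAVL4, ELAVL2, NOVA2 and RBFOX2) and none fell, against 14.5% and 11.5% of all genes. No gene of the 8 fell at an unadjusted p below 0.05, nor with DESeq2 or limma-voom. The same 4 genes had KO values wholly above the WT values, as did 21.7% of all genes tested, none lay wholly below (20.1% of all genes), and the other 4 overlapped. Their median log2 fold change was 0.34, against 0.00 over all genes. The rises ranged from 4.28-fold for ELAVL4 to 1.16-fold for RBFOX2. Only ELAVL4 and ELAVL2 kept an adjusted p below 0.05 under each of the 15 alternative settings tried.

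**Figure D1:**
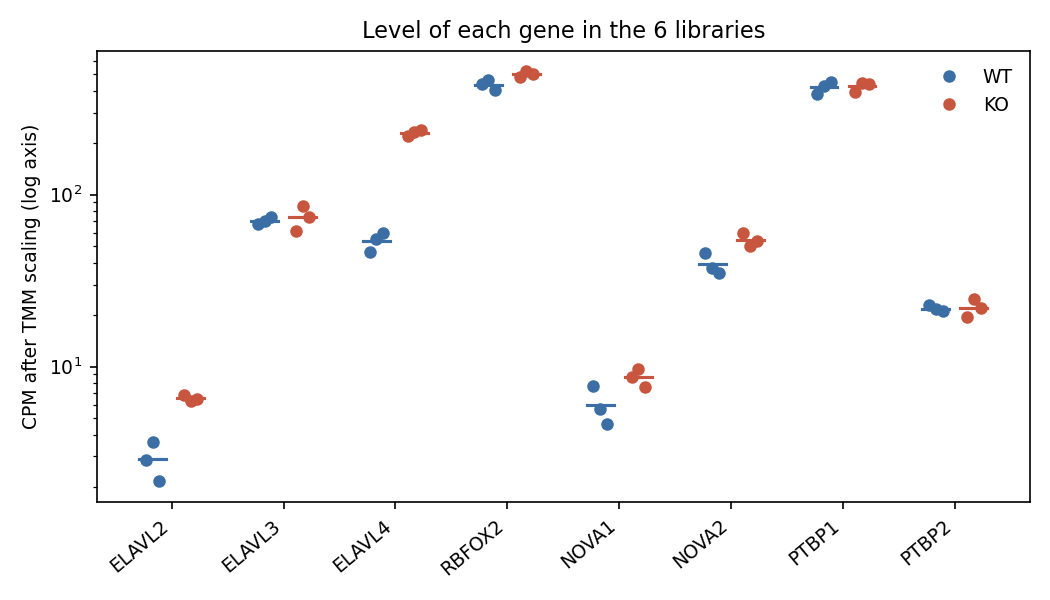
CPM after TMM scaling (log axis) of the 8 tested genes in the 3 WT (blue) and 3 KO (red) libraries, where points are libraries and bars are means. ELAVL4 shows the widest gap, from 46.1 to 59.6 CPM in WT to 218 to 239 CPM in KO, while PTBP1, PTBP2 and ELAVL3 overlap.

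ELAVL4 (HuD), the ELAVL protein of differentiating and mature neurons, lies at chr1:50048055-50203772 on the plus strand (RefSeq, GRCh38.p14, as for the genes below). It stood at 46.1, 55.2 and 59.6 CPM in the WT libraries and at 218, 231 and 239 CPM in the KO libraries. The lowest KO library was therefore well above the highest WT library, and the spread within each genotype was small. The log2 fold change was 2.10 ± 0.09 (SE; edgeR adjusted p = 1.08e-07), and it ran from 2.0 to 2.18 over the alternatives. In order of p it was gene 71 of the 16403 tested.

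ELAVL2 (HuB), which acts earlier in neuronal differentiation and is also found in germ cells, lies at chr9:23690104-23850601 on the minus strand. Its level was far lower, at 2.86, 3.65 and 2.15 CPM in WT and 6.82, 6.31 and 6.44 CPM in KO. The KO libraries lay close together and above all WT libraries. The WT values rest on 42 to 72 counts per library and the KO values on 131 to 138. The log2 fold change was 1.17 ± 0.22 (SE; edgeR adjusted p = 0.00225).

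ELAVL3 (HuC), a marker of postmitotic neurons, lies at chr19:11451326-11481046 on the minus strand. It stood at 67.3, 70.1 and 74.2 CPM in WT and at 61.5, 86.0 and 73.7 CPM in KO. The KO libraries fell on both sides of the WT range. Its log2 fold change of 0.06 ± 0.11 (SE) did not pass the test (edgeR adjusted p = 0.732). The ubiquitous paralog ELAVL1 (HuR), a gene outside the 10, had a log2 fold change of 0.08 ± 0.06 (SE; edgeR adjusted p = 0.381), with 133 to 142 CPM in WT and 142 to 151 CPM in KO.

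Per length, the makeup of the neuronal ELAVL pool differed between genotypes. TPM, a level per length on a common scale, were summed over the GENCODE 29 transcripts of each gene. ELAVL4 made up 40.57, 44.79 and 45.62% of the summed TPM of ELAVL2, ELAVL3 and ELAVL4 in WT and 76.33, 70.15 and 77.57% in KO. ELAVL3 made up 56.83, 52.11 and 52.84% in WT and 20.99, 27.17 and 20.58% in KO. ELAVL3 was thus the larger part in each WT library and ELAVL4 in each KO library. The ELAVL4 shares are lower bounds, since its GENCODE 29 transcripts hold 85.0% of its counts (83.2 to 87.9% per library), and in WT the order of the pair is not settled for that reason. The ELAVL2 share was 2.42% ± 0.798 in WT and 2.41% ± 0.480 in KO (SD, n = 3 each), with overlapping values. The paralogs share only short runs of sequence. The longest identical stretch between ELAVL4-206 and ELAVL3-201 has 26 bases, and between ELAVL4-206 and ELAVL2-201 it has 20 bases.

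RBFOX2, the family member found in most tissues, lies at chr22:35738736-36028824 on the minus strand. It stood at 440, 463 and 405 CPM in WT and 486, 522 and 504 CPM in KO. The groups did not overlap, although the highest WT and the lowest KO library were close. The difference was 0.21 ± 0.07 on the log2 scale (SE; edgeR adjusted p = 0.0389). This call was lost under 7 of the 15 alternatives, with an edgeR adjusted p of 0.119 under library size alone, 0.0817 with counts summed from the transcript files, and between 0.0529 and 0.135 when WT replicate 1, 2 or 3 or KO replicate 2 or 3 was left out.

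The remaining RBFOX genes were close to absent. RBFOX1 (chr16:5239721-7713340, plus strand) and RBFOX3 (chr17:79089345-79665571, minus strand), whose protein is the neuronal marker NeuN, had no row in the gene table, in which the lowest row total is 10. In the transcript files RBFOX1 had 1.0 estimated read in WT replicate 1 and 0 in the other 5 libraries, where a count of 0 allows up to 3 counts. RBFOX3 had 0, 0 and 4.0 estimated reads in WT and 3.0, 1.0 and 1.0 in KO. Neither could be tested, and a difference between genotypes was not detectable at this depth.

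NOVA2, the NOVA protein of the cortex, lies at chr19:45933734-45973865 on the minus strand. It stood at 45.9, 37.5 and 34.9 CPM in WT and 59.8, 50.3 and 53.7 CPM in KO. All KO libraries were above all WT libraries, with WT replicate 1 the nearest to them. The rise was 0.47 ± 0.11 on the log2 scale (SE; edgeR adjusted p = 0.0113). The adjusted p rose to 0.0646 without WT replicate 2 and to 0.0590 without WT replicate 3. The GENCODE 29 transcripts of NOVA2 hold only 20.6% of its counts in the gene table (0 to 67.5% per library), so that values built from them, which turn the sign, do not measure the gene.

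NOVA1, the paralog of hindbrain and spinal cord, lies at chr14:26443090-26598033 on the minus strand. It stood at 7.70, 5.63 and 4.65 CPM in WT and at 8.66, 9.68 and 7.56 CPM in KO. WT replicate 1 lay just above KO replicate 3, so that the groups overlapped. Its log2 fold change of 0.52 ± 0.20 (SE) did not pass the test (edgeR adjusted p = 0.0793). Without WT replicate 1 it was 0.74 (edgeR adjusted p = 0.0223).

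PTBP1, the repressor of neuronal exons, lies at chr19:797452-812312 on the plus strand. It stood at 384, 431 and 454 CPM in WT and 393, 448 and 438 CPM in KO. The ranges of both genotypes overlapped almost fully. Its log2 fold change was 0.01 ± 0.08 (SE; edgeR adjusted p = 0.944), between -0.06 and 0.07 over the alternatives. PTBP2, the form that replaces it in young neurons, lies at chr1:96721784-96823739 on the plus strand. It stood at 22.7, 21.5 and 20.9 CPM in WT and 19.3, 24.7 and 21.8 CPM in KO, with the KO values on both sides of the WT values. Its log2 fold change was 0.02 ± 0.11 (SE; edgeR adjusted p = 0.928). PTBP2 made up 3.36% ± 0.372 of the summed TPM of the pair in WT and 3.62% ± 0.316 in KO (SD, n = 3 each), which are lower bounds, since GENCODE 29 transcripts hold 60.4% of PTBP2 counts and 97.6% of PTBP1 counts. Their paralog PTBP3, outside the 10, also missed the threshold, at a log2 fold change of 0.03 ± 0.13 (SE; edgeR adjusted p = 0.903).

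**Figure D2:**
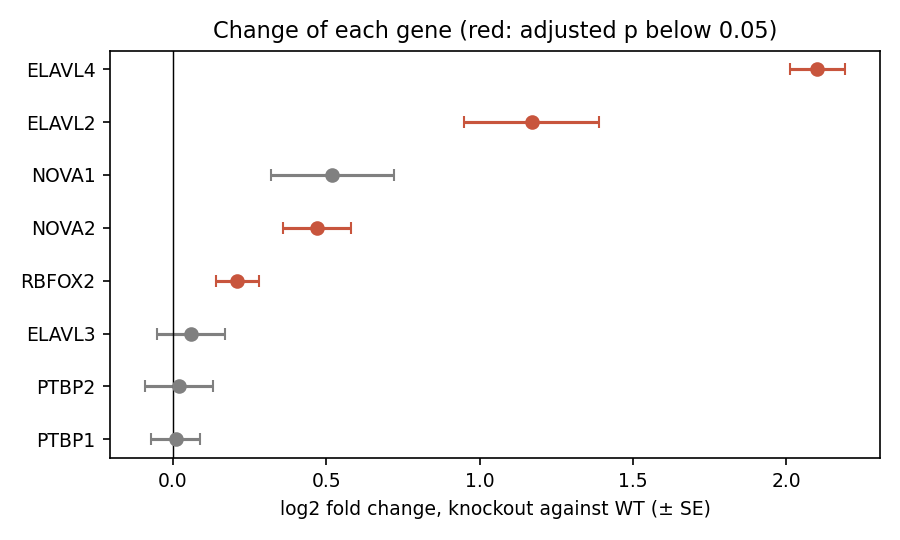
Log2 fold change of KO against WT with its SE for the 8 tested genes, red where the edgeR adjusted p was below 0.05. ELAVL4 at 2.10 and ELAVL2 at 1.17 stand apart from NOVA2 at 0.47 and RBFOX2 at 0.21, and ELAVL3, PTBP1 and PTBP2 lie within 0.06 of 0.

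Levels were ordered per length by summed TPM, which are lower bounds for ELAVL4, as above, and for RBFOX2 and PTBP2, since GENCODE 29 transcripts hold 67.5% and 60.4% of their counts. In WT the order was PTBP1 (194 TPM ± 14.9), RBFOX2 (80.7 ± 7.46), ELAVL3 (28.9 ± 0.914), ELAVL4 (23.4 ± 2.12), PTBP2 (6.71 ± 0.397), NOVA1 (4.23 ± 1.53) and ELAVL2 (1.29 ± 0.407; SD, n = 3 each). In these sums no neighbours overlapped, but the order of ELAVL3 and ELAVL4 in WT is not settled, as above. In KO the order was PTBP1 (178 TPM ± 16.6), RBFOX2 (94.8 ± 8.67), ELAVL4 (93.1 ± 10.5), ELAVL3 (28.7 ± 6.10), PTBP2 (6.74 ± 1.19), NOVA1 (6.27 ± 0.681) and ELAVL2 (2.97 ± 0.488). There the sums of RBFOX2 overlapped with those of ELAVL4, and those of PTBP2 with those of NOVA1. Since the sums for RBFOX2, ELAVL4 and PTBP2 are incomplete, these overlaps may not hold for the whole genes. NOVA2 was left out of the order because of its incomplete transcripts.

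In the estimates, the gain of ELAVL4 differed in size between its first exons. The tests of shares and of usage given below did not establish that difference. ELAVL4-206, whose upstream window is printed above and whose first exon starts at chr1:50103910-50104000, stood at 7.13, 7.56 and 12.8 TPM in WT and 50.5, 57.7 and 67.0 TPM in KO. The KO libraries were far above WT, a ratio of means of 6.38. This was a log2 fold change of 2.72 ± 0.29 (SE; edgeR adjusted p = 0.0116). Of 120 transcripts of the 10 genes in the files, 38 were tested and ELAVL4-206 alone rose, where 2.76% of all 52233 transcripts tested changed and 1.70% rose. None fell past the threshold in edgeR, and 1 was lower at an unadjusted p below 0.05. The call for ELAVL4-206 was lost under 5 of 10 alternatives, where the edgeR adjusted p lay between 0.0525 and 0.0688: the replicate block, and leaving out WT replicate 1 or 2 or KO replicate 2 or 3.

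Shares were taken of the TPM of ELAVL4 transcripts grouped by first exon, without ELAVL4-209 and ELAVL4-210. ELAVL4-206 took 33.78, 31.60 and 50.56% in WT and 60.11, 63.82 and 64.94% in KO. All KO shares were above all WT shares, by an exact permutation test with p = 0.1, two-sided, the smallest that 3 against 3 can give. The first exon shared by ELAVL4-202, ELAVL4-203 and ELAVL4-211, 5716 bases downstream, went from 25.06, 35.72 and 33.79% to 17.12, 20.49 and 21.92%. These shares were all lower in KO (exact permutation p = 0.1), although the transcripts' summed level was higher, at 18.5 TPM ± 4.12 in KO and 7.46 TPM ± 1.88 in WT (SD, n = 3 each). Among the first exons so grouped, each of the 5 with any TPM had its KO levels above its WT levels. The lowest ratio of means was 1.91, for ELAVL4-204 with ELAVL4-205. The estimate for ELAVL4-205 alone moved between 0 and 10.6 TPM within KO. GENCODE 29 transcripts hold 83.2 to 87.9% of ELAVL4 counts per library, and the first exons behind the rest are not known here. The lengths of ELAVL4-203, ELAVL4-207 and ELAVL4-211 differ between the transcript files and GENCODE 29, so their first exons may differ too.

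**Figure D3:**
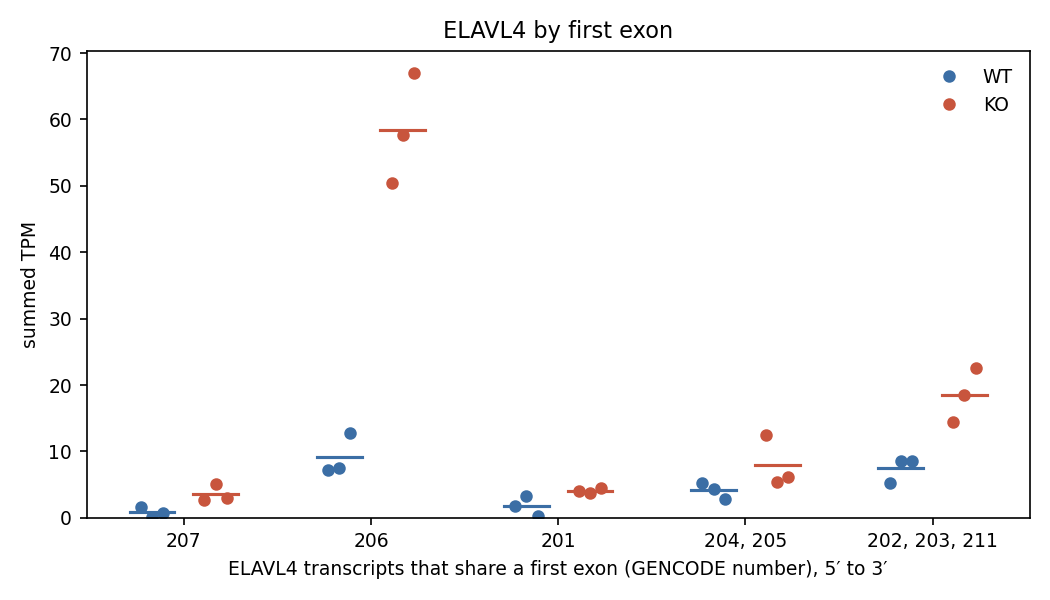
Summed TPM of ELAVL4 transcripts that share a first exon, in 5′ to 3′ order of those exons, for 3 WT (blue) and 3 KO (red) libraries with means as bars. ELAVL4-206 reaches 50.5 to 67.0 TPM in KO, above every other first exon in either genotype.

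A test of transcript usage, which asks whether a transcript moves against the rest of its gene, called none of 37 tested transcripts of these genes, against 0.484% of 40675 in all. With edgeR's diffSpliceDGE none of the 37 had an unadjusted p below 0.05, the lowest being 0.113, and no other tool was run on usage. For ELAVL4-206 the usage log2 difference was 0.63, with an adjusted p of 1.0 in edgeR. On simulated transcripts of these libraries, with 82 of 35066 changed 4-fold, the usage test recovered 1.2% of those. That share may differ in the data, where more may have changed, but the absence of calls does not show unchanged usage. PTBP1-203, which includes the 78-base exon, and PTBP1-201, which lacks it, were the main PTBP1 forms at 123 TPM ± 4.83 and 41.2 TPM ± 4.61 in WT (SD, n = 3 each). RBFOX2-209 and RBFOX2-205 led RBFOX2, and their log2 fold changes of 0.27 ± 0.20 and 0.47 ± 0.20 (SE) missed the threshold (edgeR adjusted p = 0.738 and 0.420).

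Inclusion of cassette exons was computed as the TPM of transcripts with the exon, as a percentage of the TPM with and without it. An exon joined to different neighbouring exon ends was counted once for each pair of them. Of 17 such exons in 6 of the genes, 1 had groups that did not overlap, or 5.88%, which is no more than the 7.79% of 24092 exons over all genes. It was the PTBP1 exon printed above, included at 77.6, 74.6 and 75.8% in WT and 73.9, 73.0 and 66.8% in KO. Every KO library was lower, by 4.73 percentage points on average (exact permutation p = 0.1), and KO replicate 3 was the lowest. Without that library the difference was -2.52 points. The PTBP2 exon was included at 92.1, 86.6 and 43.0% in WT and 85.0, 95.2 and 70.8% in KO. Those groups overlapped widely, and they rest on 2.69 to 6.07 TPM of including transcripts. The GENCODE 29 transcripts hold 44.3 to 70.4% of PTBP2 counts per library, the lowest share being that of WT replicate 3, which also had the lowest inclusion.

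**Figure D4:**
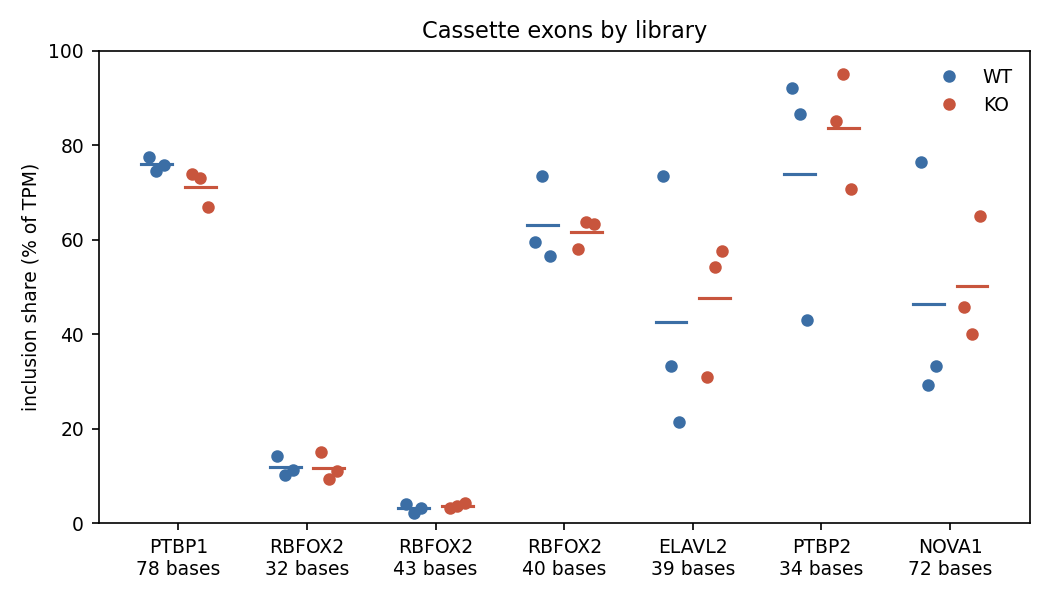
Inclusion share in percent of TPM of 7 of the 17 cassette exons, by gene and exon length, in 3 WT (blue) and 3 KO (red) libraries with means as bars. The PTBP1 exon of 78 bases has KO values below WT values, while the other 6 overlap.

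In the other genes the NOVA1 exon of 72 bases was included at 46.4% ± 26.1 in WT and 50.3% ± 13.0 in KO (SD, n = 3 each). The ELAVL2 exon of 39 bases, which lies in the hinge before the last RNA-binding domain, was included at 42.7% ± 27.3 and 47.6% ± 14.6. Both rest on low TPM, and their libraries were widely scattered. The RBFOX2 exon of 40 bases was included at 63.1% ± 9.06 in WT and 61.7% ± 3.24 in KO, again with overlap.

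Other regulators were read from lists chosen by function. Of 25 tested regulators of splicing and RNA fate, some restricted to certain tissues and some, such as ELAVL1 and CELF1, widely expressed, 11 rose and 2 fell in edgeR, with a median log2 fold change of 0.28, against 14.5% and 11.5% of all genes and a median of 0.00. SRRM4, the neuronal activator of microexons, stood at 0.387, 0.609 and 0.358 CPM in WT and 10.5, 15.6 and 14.2 CPM in KO, a log2 fold change of 4.88 ± 0.26 (SE; edgeR adjusted p = 3.4e-07). CELF4, a neuronal protein of the CELF family, rose by 4.39 ± 0.29 and RBM24, a splicing regulator of muscle, by 4.09 ± 0.26 on the log2 scale (SE; edgeR adjusted p = 1.32e-06 and 1.28e-06). All 3 were near the floor in WT, with 27, 17 and 24 counts over the 3 libraries. They, and CELF2 with 21 counts in WT, met the filter on low counts only through their KO libraries. Such genes could be called higher but hardly lower, so the count of 11 that rose leans upward. CELF2, CELF3 and CELF5, named after their values were seen, also rose, by 3.22 ± 0.49, 1.47 ± 0.12 and 2.05 ± 0.16 on the log2 scale (SE), whereas CELF6 and the widely expressed CELF1 missed the threshold at 2.48 ± 0.94 and 0.07 ± 0.06. The CELF6 libraries overlapped. RBPMS2 and RBM38 fell, by 0.64 and 0.28 on the log2 scale.

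**Figure D5:**
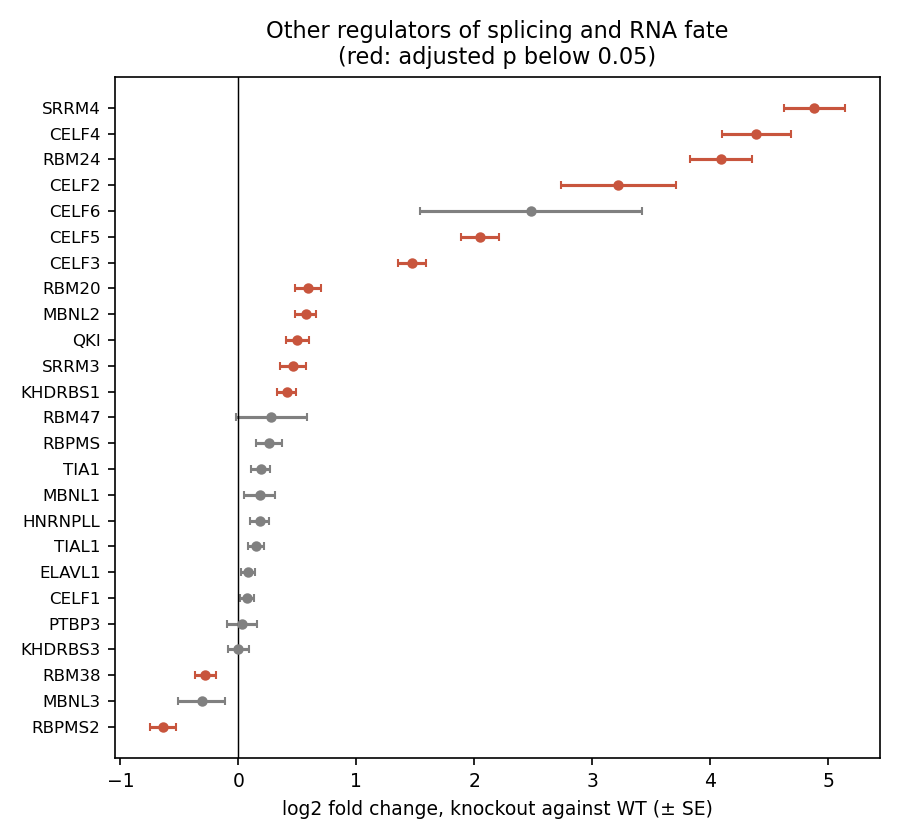
Log2 fold change of KO against WT with its SE for 25 tested regulators of splicing and RNA fate, restricted and widely expressed, red where the edgeR adjusted p was below 0.05. SRRM4 at 4.88, CELF4 at 4.39 and RBM24 at 4.09 lie at the top and RBPMS2 at -0.64 at the bottom.

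Of 28 SR proteins and hnRNPs, the general splicing factors, 5 rose and 0 fell in edgeR, with a median of 0.15. The 17.9% that rose is near the 14.5% of all genes. At an unadjusted p below 0.05, 1 was lower, and DESeq2 and limma-voom called 0 lower. HNRNPD, which as AUF1 binds AU-rich elements, rose by 0.66 ± 0.09, HNRNPH1 by 0.56 ± 0.08 and HNRNPA1, a partner of PTBP1 in exon repression, by 0.48 ± 0.06 on the log2 scale (SE; edgeR adjusted p = 0.000219, 0.000314 and 0.000281). Of 24 regulators of mRNA transport and translation, 4 rose and 0 fell in edgeR, with a median of 0.10. The 16.7% that rose is again near the 14.5% of all genes. By unadjusted p below 0.05, 1 was lower, as with DESeq2 and limma-voom. STAU2, which carries mRNAs into dendrites, stood at 46.3, 40.3 and 38.8 CPM in WT and 118, 124 and 123 CPM in KO, a rise of 1.54 ± 0.08 (SE; edgeR adjusted p = 3.42e-07).

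Of 15 mRNAs known as targets of neuronal ELAVL proteins, 6 rose and 3 fell in edgeR, with a median of 0.29, or 40% and 20% against 14.5% and 11.5% of all genes. DESeq2 and limma-voom each called 5 higher and 3 lower. NRN1, a neurite growth factor stabilised by ELAVL4 in motor neurons, fell from 15.8, 14.4 and 15.1 CPM in WT to 7.84, 7.95 and 8.02 CPM in KO. VEGFA fell from 49.9, 60.1 and 55.2 to 30.6, 37.7 and 34.2 CPM. CDKN1B, the cell-cycle inhibitor p27, rose from 74.9, 82.1 and 79.4 to 98.1, 98.2 and 94.9 CPM. The genotypes did not overlap in any of these 3 genes, with log2 fold changes of -0.93 ± 0.11, -0.69 ± 0.10 and 0.30 ± 0.07 (SE; edgeR adjusted p = 0.000128, 0.000594 and 0.00801). GAP43, the best studied ELAVL4 target and named here for that, stood at 29.4, 28.6 and 32.2 CPM in WT and 20.1, 26.6 and 25.6 CPM in KO. Its KO values were all below its WT values, but its log2 fold change of -0.32 ± 0.12 missed the threshold (SE; edgeR adjusted p = 0.0760).

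Of 20 tested genes with exons known as targets of PTBP, RBFOX or NOVA proteins, 13 rose and 0 fell in edgeR, with a median of 0.76, where 14.5% of all genes rose and 11.5% fell. None fell at an unadjusted p below 0.05, nor with DESeq2 or limma-voom. GRIN1 and DAB1, with 25 and 11 counts over the WT libraries, met the filter on low counts only through their KO libraries. They are among the 13 and could hardly have been called lower. NRXN2, a presynaptic adhesion protein, rose by 4.50 ± 0.14 and SNAP25, a vesicle fusion protein, by 1.95 ± 0.10 on the log2 scale (SE; edgeR adjusted p = 1.25e-08 and 3.4e-07). These are gene levels and not exon choice. Of 59 cassette exons in 16 of these genes, 4 were wholly higher and 4 wholly lower in KO, against 3.96% and 3.84% of all exons.

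The SRC exon of 18 bases, a neuronal exon of that kinase repressed by PTBP1, was listed at 0% in all 3 WT libraries and at 8.12, 16.4 and 8.76% in KO. The level of the whole gene had a log2 fold change of 0.07 ± 0.07 (SE; edgeR adjusted p = 0.495). The other higher exons were in NRXN2 (90 bases, by 54.9 points), ATP2B1 (108 bases, by 38.2 points) and ANK3 (2583 bases, by 4.78 points), all named after their values were seen. In WT the NRXN2 exon rests on 0, 0 and 0.29 TPM of including and 0.26, 0.067 and 0.411 TPM of skipping transcripts. Its WT inclusion, and so the size of its difference, is therefore poorly measured. The higher ANK3 exon rests on 0.092, 0.121 and 0.162 TPM of including transcripts in KO. The lower exons, with mean differences of -14.2, -13.0, -8.45 and -0.076 points, were in GABBR1 (151 bases), ANK3 (309 bases), NUMB (85 bases) and TPM1 (118 bases), the last a negligible difference, and were likewise named after their values were seen. The SRC exon, at chr20:37386460-37386477 on the plus strand, is shown in capitals within its neighbours as joined in SRC-202.
SRC exon: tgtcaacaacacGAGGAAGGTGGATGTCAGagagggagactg

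Of 12 genes of the REST repressor complex, which holds neuronal genes silent elsewhere, 1 rose and 2 fell in edgeR, with a median of 0.01. These shares of 8.33% and 16.7% lie near the 14.5% and 11.5% of all genes. REST itself stood at 18.3, 21.5 and 24.8 CPM in WT and 35.1, 47.0 and 39.7 CPM in KO, a log2 fold change of 0.92 ± 0.14 (SE; edgeR adjusted p = 0.00062). Its corepressor RCOR2 fell by 0.51 ± 0.08 and the phosphatase CTDSPL by 0.38 ± 0.07 on the log2 scale (SE; edgeR adjusted p = 0.000573 and 0.00190).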

How the data were processed

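RNA from 3 WT and 3 KO samples was sequenced after ribosomal RNA removal, per the labels' protocols. The submitters' processing notes name Salmon 1.10.0, cutadapt 3.5, DESeq2 1.42.1 and the build GRCh38.p14 without their roles, and the annotation release and strand setting are not given in the sources used here. The deposited gene table holds estimated counts rounded to whole numbers by the authors, not normalized. The deposited transcript files hold estimated counts and TPM per transcript, per the file headers. Reads that overlap on opposite strands or match similar genes may be divided by estimation.

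Each gene ID was used once (20668 of 21071 rows). Genes were filtered with filterByExpr, scaled by TMM and tested with edgeR 4.0.16 in R 4.3.3 (two-sided quasi-likelihood F-test of KO against WT, Benjamini-Hochberg over 16403 genes, threshold 0.05). The transcript files' estimated counts, rounded, were tested in the same way, and usage with diffSpliceDGE. Transcripts were assigned to genes through GENCODE 29, which holds 201667 of 251955, so that some genes are covered in part. Cassette exons needed a mean TPM of at least 1 and any TPM in every library. Only the shares of ELAVL4-206 and of the PTBP1 exon were recomputed without each library, an alternative chosen after seeing the data.

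Named are all 10 genes, DNAJC12, the 3 genes of each list with the smallest adjusted p, and up to 3 transcripts per gene with the highest mean TPM (at least 0.1) or past a threshold. A gene that this rule names is not reported here. The genes and lists were chosen with earlier results of these data known. Alternatives were DESeq2 1.42.0, limma-voom (limma 3.58.1), other scalings and filters, counts from the transcript files, a replicate block and leaving out each library. On simulated counts for 16107 genes, 77.8% of 99 genes changed 2-fold and 91.4% of 93 changed 4-fold were called, and 7.43% of calls were false. For 45505 transcripts the shares were 1.3% of 78 and 13.4% of 97. Far fewer genes and transcripts were changed there than were called in the data, so these shares may not carry over. Spread between replicates exceeded counting noise in every pair.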

Additional observations from a re-analysis of the deposited data

How the results depend on the processing

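Over 15 alternatives, ELAVL4 kept a log2 fold change of 2.0 to 2.18 and ELAVL2 one of 1.00 to 1.37, all past the threshold, and ELAVL3, PTBP1 and PTBP2 never passed it. The count of the 8 genes that changed was 4 by default, 2 with counts summed from the transcript files, and 2 to 4 when each library was left out in turn. With those summed counts and with length-corrected counts NOVA2 turned to -1.09 and -0.89 on the log2 scale (edgeR adjusted p = 0.676 and 0.674), settings that hold only part of its transcripts. The count over all genes was 4270, with 2830 under length-corrected counts and 2966 to 4772 without 1 library. The count of transcripts fell from 1441 to between 221 and 585 without 1 library, and usage calls went from 197 to between 166 and 186. The same replicate numbers occur in both genotypes, and deviations of same-numbered libraries correlated at 0.144, 0.031 and -0.075. Those of differently numbered libraries correlated at -0.181 to 0.147. These few values cannot decide whether same-numbered libraries were paired. The replicate block gave 4565 genes, 55 transcripts and 103 usage calls, and 5 of the 8 genes, NOVA1 being added (log2 fold change 0.54, edgeR adjusted p = 0.0371). The KO minus WT share of ELAVL4-206 was 20.8 to 30.3 points and that of the PTBP1 exon -6.06 to -2.52 points without 1 library. The cause of these shifts was not tested. RBFOX1 and RBFOX3 lie below what this depth can test.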

Other observations

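Exons of 3 to 27 bases (microexons), a class known to be switched on in neurons, were looked at after values had been seen. Most overlapped between genotypes, and those that did not were mostly higher in KO. Among 646 such exons in 541 genes, 92 had KO inclusion wholly above WT and 16 wholly below, or 14.2% and 2.48%. Of these, 50 and 5 differed by at least 10 points, and the median difference over all 646 was 0.3 points. Among 23446 exons of other lengths the counts were 861 and 908, or 3.67% and 3.87%. Among 2955 exons of 28 to 60 bases they were 135 and 121. The filter used the mean TPM over both genotypes, so that an exon of a gene near the floor in WT could enter through KO alone. The 16-base exon of SRRM4, counted as higher, rests in WT on 0 TPM of including and 0.055 to 0.072 TPM of skipping transcripts. Some exons were counted more than once, with different neighbours, such as a 6-base exon of NSMF. Exons of 1 gene also share reads and transcripts, so that these are descriptions without a test.

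The widest changes were in L1CAM, a neuronal adhesion molecule whose microexons are known to be neuron-specific. Its 15-base exon was included at 3.11, 18.4 and 3.23% in WT and 81.8, 82.4 and 80.6% in KO. Its 12-base exon, which creates a sorting signal in the cytoplasmic tail, was included at 3.03, 8.16 and 2.62% in WT and 62.1, 82.7 and 69.6% in KO. Both exons were thus skipped in most WT transcripts and included in most KO transcripts. An 18-base exon of NRCAM, a related adhesion molecule, went from 6.73% ± 0.618 to 34.5% ± 1.89, a 12-base exon of GRAMD1A from 38.8% ± 4.03 to 80.9% ± 5.27 and a 15-base exon of ABI1 from 10.9% ± 1.29 to 28.9% ± 2.24 (SD, n = 3 each). A 12-base exon of ATP5F1B went the other way, from 75.9, 34.5 and 65.7% to 0, 28.8 and 0%, on 0 to 3.12 TPM of including and 0.765 to 3.14 TPM of skipping transcripts. The L1CAM exons lie on the minus strand of GRCh38 at chrX:153873228-153873242 and chrX:153863368-153863379, and are shown in capitals within 12 bases of the neighbouring exons, from L1CAM-201 and L1CAM-205.
L1CAM exon of 15 bases: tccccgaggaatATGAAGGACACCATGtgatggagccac
L1CAM exon of 12 bases: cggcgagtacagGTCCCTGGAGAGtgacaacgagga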
